A study of Mus musculus with 45 samples.

Results

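RNA from the retina and the cortex, measured by bulk RNA sequencing, was compared in mice that had received only the vehicle. Libraries were taken as the members when their labels gave vehicle as the treatment and retina or cortex as the tissue, which gave 14 of the 45 libraries of the series, 7 from each tissue. Both tissues came from the same 7 animals, 3 females (animals 955, 957 and 958) and 4 males (animals 963, 964, 965 and 966), all 3 months old and all given sunflower oil. The study as a whole asked what tamoxifen, a drug used to switch on inducible Cre recombinase, does to gene expression in these tissues and in the hippocampus. The sources used here do not give strain, genotype, the way the tissues were dissected or the delay after treatment. Each tissue is a bulk sample of many cell types, so a difference in a gene can come from fewer cells of a type or from less RNA per cell, and these cannot be told apart. The tables of the 2 tissues were deposited separately, so tissue cannot be told apart from any difference in dissection, sequencing or processing between them.

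Retina and cortex are both outgrowths of the embryonic forebrain. The retina turns light into electrical signals: rods and cones hold their visual pigment in stacked membranes of a modified cilium, the outer segment, and release glutamate in the dark from ribbon synapses onto bipolar and horizontal cells, with amacrine and ganglion cells further inward and Muller glia spanning the layers. The cortex is built of glutamatergic projection neurons with spine synapses, of GABA-releasing interneurons, and of astrocytes, oligodendrocytes that wrap axons in myelin, and microglia. In mice the axons of ganglion cells stay without myelin inside the eye.

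Expected counts ranged from 9143811 to 18253874 per retina library and from 10259768 to 20192115 per cortex library. Levels below are CPM, that is counts scaled to a table total of 1000000, and log2 fold changes are retina minus cortex with standard errors (SE). The first principal component of log2 CPM carried 90.4% of the variance and parted the tissues, and the second carried 1.71%. Some libraries stood apart within their tissue. The retina of animal 955 held more non-coding RNA than the others, with a summed 17194 CPM of genes typed miscRNA against 9324 to 12001 CPM in the other 6 retinas. The cortex of animal 958 held the most choroid plexus RNA (Ttr at 1127 CPM against at most 295 CPM in the other cortices) and that of animal 964 the most rod RNA. Pigment epithelium genes summed to 858, 877 and 1424 CPM in the retinas of animals 958, 965 and 966 and to 195 to 517 CPM in the other 4. Malat1 and Meg3, abundant long non-coding RNAs named after their values were seen, reached 1174 and 1307 CPM in the retina of animal 955, above the highest other retina (861 and 565 CPM). Xist and the Y-linked genes went with the labelled sex in all 14 libraries.

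Of 15235 genes tested, 12932 (84.9%) differed between the tissues at an adjusted p under 0.05 by edgeR's quasi-likelihood test, 6921 higher in the retina (45.4% of genes tested) and 6011 higher in the cortex (39.5%). With 7 animals and tissues this far apart most genes passed, so differences were also tested against a 2-fold limit. Beyond it lay 5364 genes (35.2%), 2727 higher in the retina (17.9%) and 2637 higher in the cortex (17.3%). The balance turned with the scaling, with 2557 and 2765 genes under TMM factors and 2547 and 2770 under DESeq2 size factors. Beyond 4-fold lay 1101 (7.23%) and 1138 (7.47%). Leaving out the retina of animal 955 gave 5291 genes beyond 2-fold, leaving out the cortices of animals 958 and 965 gave 5309, and leaving out the retinas of animals 958, 965 and 966 gave 5322, 2636 higher in the retina and 2686 in the cortex. The median log2 fold change was 0.08, and 5354 genes (35.1%) lay within 0.5 log2 of no difference. The extremes were uneven: 141 genes were more than 8 log2 units higher in the retina and 45 in the cortex. The counts of the retina were also more concentrated, with 6.23 to 7.09% of each library in its 10 most counted genes against 2.78 to 2.99% in the cortex. The photoreceptor genes Gnat1, Rbp3 and Prph2, with Gnb1, were among the most counted in the retina, and Kif5a (a neuronal motor of axonal transport), Slc1a2, Snap25 and Camk2a were among the most counted in the cortex.

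**Figure D1:**
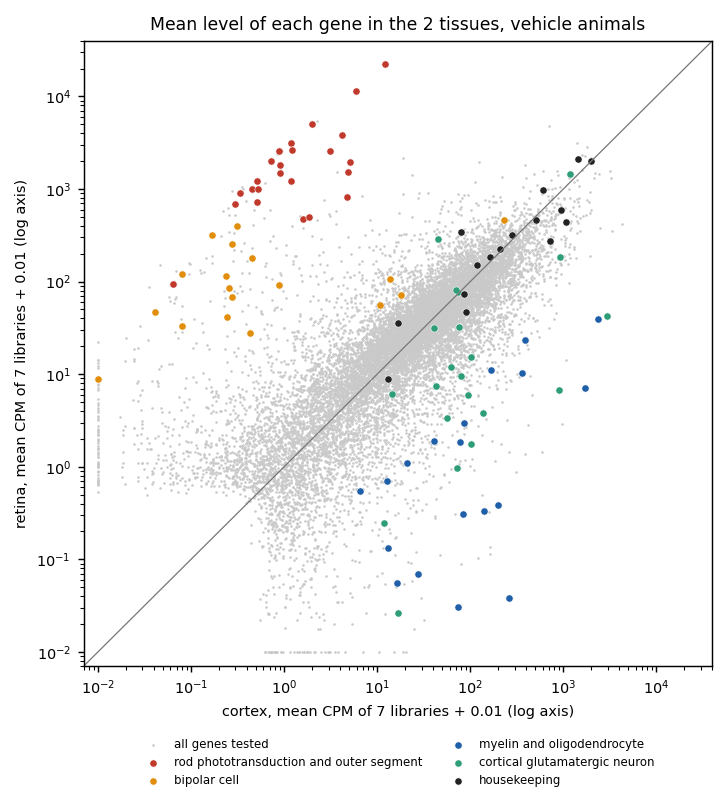
Each point is a gene, placed by its mean CPM over 7 cortex libraries (horizontal, log axis) and 7 retina libraries (vertical, log axis), with 0.01 CPM added, and the line marks equal levels. The 24 rod genes (red) sit far above the line, the 19 myelin genes (blue) below it, and housekeeping genes (black) near it.

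Among the gene lists examined, rod genes had the largest median difference. All 24 genes of rod phototransduction and the outer segment were higher in the retina beyond 2-fold (17.9% of genes tested were), with a median log2 fold change of 11.11 against 0.08 over all genes. Together they took 7.12% of the retina's counts and 0.0055% of the cortex's. Gnat1 (chr9:107674474-107679592), the alpha subunit of rod transducin, the G protein of the cascade, ranged over 10597 to 12552 CPM (median 11283) in the retina. In the cortex it ranged over 1.58 to 14.5 CPM (median 4.32), and its log2 fold change was 11.10 ± 0.24. No cortex library came near any retina library, and the retinas themselves lay close together. The next step of the cascade, the phosphodiesterase that degrades cyclic GMP, was as far apart, with log2 fold changes of 11.58 ± 0.19 for Pde6a and 11.51 ± 0.15 for Pde6b. Slc24a1, the exchanger that clears calcium from the rod outer segment, had a log2 fold change of 11.71 ± 0.14. Prph2, a tetraspanin that shapes the disc rims, lay at 4769 to 5293 CPM (median 4990.2) in the retina and at 0.413 to 4.68 CPM (median 1.72) in the cortex. Its partner and paralogue Rom1 was also expressed almost only on the retinal side, at a smaller log2 fold change of 8.60 ± 0.07. Sag, the arrestin of rods, lay at 3363 to 4079.7 CPM (median 3841) against 2.94 to 5.42 CPM (median 4.14), a log2 fold change of 9.84 ± 0.10. Pdc, phosducin, which binds the beta-gamma subunits of transducin, had the largest fitted fold of the genes higher in the retina, at 2362 to 2819 CPM (median 2593) in the retina and 0.138 to 2.92 CPM (median 0.411) in the cortex. Its log2 fold change was 12.19 ± 0.17. The smallest folds of the list belonged to Gucy2e, a guanylate cyclase that restores cyclic GMP (7.53 ± 0.08), to Rdh12, a retinol dehydrogenase (8.15 ± 0.12), and to Gucy2f, the second cyclase (8.23 ± 0.08).

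Cones gave the same direction at lower counts. All 10 cone genes were higher in the retina beyond 2-fold, with a median of 9.22. Opn1sw, the short-wavelength cone pigment, lay at 465 to 556 CPM (median 524) in the retina against 0.0576 to 0.575 CPM (median 0.275) in the cortex, and its log2 fold change was 10.77 ± 0.11. Arr3, cone arrestin, lay at 147 to 292 CPM (median 179.9) against 0.644 to 1.27 CPM (median 1.09); its highest retina library was that of animal 955, and the log2 fold change of 7.55 became 7.36 without it. The transducin subunits of cones were both far higher in the retina, Gnat2 by 10.01 ± 0.12 and Gnb3 by 10.06 ± 0.18. Gngt2, the cone gamma subunit, had the smallest fold of the list (5.71 ± 0.12). Rbp3, which carries retinoids between photoreceptors and pigment epithelium and lies outside both lists, ranged over 5058 to 5656 CPM (median 5559) in the retina against 0.689 to 4.97 CPM (median 1.98) in the cortex.

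**Figure D2:**
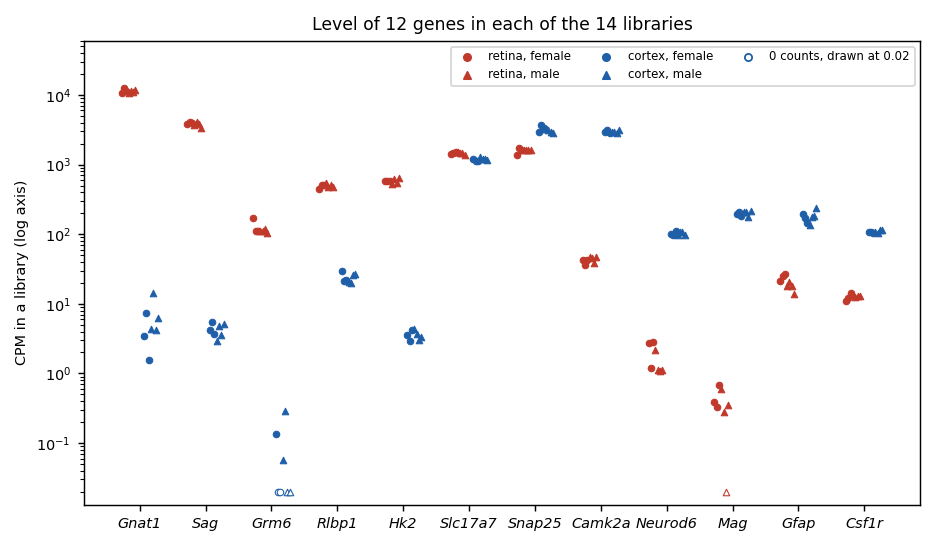
CPM (log axis) of 12 genes in each of the 14 libraries, retina in red and cortex in blue, females as circles and males as triangles, with libraries at 0 counts drawn open at 0.02. Gnat1 and Sag keep more than 2 orders of magnitude between the tissues in all animals, Slc17a7 lies close together in both, and Mag, Camk2a and Neurod6 lie far higher in the cortex.

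The starts of rod genes were then read for the core letters bound by CRX, the homeodomain factor of photoreceptors, since the whole list differed together and Crx itself was far higher in the retina. The motif TAATCC was searched on both strands (GGATTA on the other) in the 250 bases before the start of each gene, taken from RefSeq on GRCm38.p6, in 12000 of the genes tested. It stood in 628 of them (5.23%), in 161 of 2108 genes (7.64%) beyond 2-fold higher in the retina, in 72 of 1981 (3.63%) beyond 2-fold higher in the cortex in 29 of 102 (28.4%) more than 8 log2 units higher in the retina and in 3 of 27 (11.1%) as far higher in the cortex. Of the rod list, 17 genes had a sequence and 9 of these (52.9%) held the motif. The motif stood in 1 of 6 cone genes (16.7%), 4 of 15 bipolar genes (26.7%), 2 of 14 myelin genes (14.3%) and 0 of 16 cortical glutamatergic genes. A homeodomain motif of another kind, TAATTA, which reads the same on both strands and shares only its first 4 letters with TAATCC, stood in 2.52% of all promoters, in 2.94% of those more than 8 log2 units higher in the retina and in 1 of the 17 rod promoters. A match describes letters in a window and is not evidence of binding.

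The last 120 bases before the start are printed for 6 of the rod genes that held the motif there and for Rbp3. Pdc, the gene with the largest fold toward the retina, held none and is also printed. Cngb1 and Gucy2f, whose nearest motif ended 19 and 53 bases before the start, are not printed. Each printed sequence is written 5′ to 3′ on the gene's own strand with the motif in capitals.
Gucy2e (chr11:69237023-69237142, minus strand): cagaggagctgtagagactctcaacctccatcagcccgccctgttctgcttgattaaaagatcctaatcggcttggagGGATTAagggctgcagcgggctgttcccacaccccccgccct
Gngt1 (chr6:3993888-3994007, plus strand): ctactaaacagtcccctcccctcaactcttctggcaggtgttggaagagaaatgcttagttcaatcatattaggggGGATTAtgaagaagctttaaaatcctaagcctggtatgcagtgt
Aipl1 (chr11:72037510-72037629, minus strand): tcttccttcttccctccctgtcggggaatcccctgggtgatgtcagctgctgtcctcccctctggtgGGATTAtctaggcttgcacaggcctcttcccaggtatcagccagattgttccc
Guca1a (chr17:47400607-47400726, minus strand): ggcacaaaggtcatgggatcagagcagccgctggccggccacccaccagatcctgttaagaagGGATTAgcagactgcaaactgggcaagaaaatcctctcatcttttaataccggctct
Abca4 (chr3:122044340-122044459, plus strand): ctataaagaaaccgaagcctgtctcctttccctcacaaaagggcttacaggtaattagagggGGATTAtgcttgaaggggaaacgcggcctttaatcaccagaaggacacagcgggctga
Sag (chr1:87803560-87803679, plus strand): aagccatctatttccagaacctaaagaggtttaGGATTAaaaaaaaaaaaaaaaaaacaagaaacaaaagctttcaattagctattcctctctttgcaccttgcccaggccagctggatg
Rbp3 (chr14:33953883-33954002, plus strand): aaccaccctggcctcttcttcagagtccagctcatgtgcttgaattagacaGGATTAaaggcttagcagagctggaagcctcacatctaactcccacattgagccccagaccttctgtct
Pdc (chr1:150319297-150319416, plus strand): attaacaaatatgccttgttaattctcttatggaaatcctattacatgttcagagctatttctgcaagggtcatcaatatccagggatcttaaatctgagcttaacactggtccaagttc

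In Gucy2e, Gngt1, Aipl1, Guca1a and Abca4 the motif ended 36, 38, 47, 51 and 52 bases before the start, all on the strand that reads GGATTA, and in Rbp3 and Sag it ended 63 and 81 bases before it. Of the rod genes without a match in 250 bases, Prph2, Slc24a1 and Pde6b had log2 fold changes above 11, as Pdc did. The genes with a match spanned 7.53 (Gucy2e) to 11.44 (Cnga1), so presence of these letters did not order the rod genes by fold.

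The factors that build and maintain the retina followed. All 20 retinal transcription factor genes were higher in the retina beyond 2-fold, with a median log2 fold change of 8.87. Crx lay at 1112 to 1202 CPM (median 1149) in the retina and 0.2002 to 1.07 CPM (median 0.682) in the cortex. Nrl, which sets rod against cone fate, had a log2 fold change of 11.05 ± 0.16, and its target Nr2e3, which holds cone genes down in rods, one of 11.35 ± 0.14. Rax, the early eye field factor, gave 5 counts in all cortex libraries together against 6297 in the retina. Some factors of the list differed less, such as Prdm8 by 1.61 ± 0.06 and Prdm1 by 3.78 ± 0.16. Pax6, used by amacrine and ganglion cells, lay at 294 to 339 CPM (median 312) in the retina and 5.41 to 8.94 CPM (median 7.15) in the cortex.

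Genes of the photoreceptor cilium, many of them used by cilia of other cells too, spanned a wide range of folds. Of 35 tested, 31 were higher in the retina and 4 in the cortex, and 21 and 1 passed the 2-fold limit (median 1.44). The top of the group was made of genes whose proteins work in the outer segment or in transport into it. These were Tulp1 (12.10 ± 0.15), Rp1l1 (12.03 ± 0.12) and Rp1 (11.66 ± 0.13), followed at a distance by Cdhr1 (8.73 ± 0.09). Tulp1, a tubby-like protein that moves cargo into the outer segment, lay at 979 to 1092 CPM (median 1046) in the retina and at 0 to 1.17 CPM (median 0.2303) in the cortex. The 7 genes of the BBSome in the list, a coat that carries membrane proteins in cilia, were all higher in the retina beyond 2-fold, by 1.31 to 3.31. The smallest folds of the list were those of Ift20 (0.18 ± 0.05), Iqcb1 (-0.17 ± 0.08) and Spata7 (-0.18 ± 0.08), and the tissues overlapped for these 3. Ift20 did not pass with TMM scaling (0.12), nor Iqcb1 and Spata7 with the animal as a block (-0.16 and -0.17). The motor Kif17 was the member beyond 2-fold in the cortex (-2.22 ± 0.13).

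Second-order neurons of the retina were as clear. All 18 bipolar cell genes were higher in the retina, 17 beyond 2-fold, with a median of 8.53 (8.38 with Cabp2, at 0 counts in all cortices, set to its bound). Grm6, the metabotropic glutamate receptor by which ON bipolar cells sense the dark release of photoreceptors, lay at 105 to 173 CPM (median 112) in the retina and gave 6 counts over the 7 cortices against 11009 in the retina. Its channel Trpm1 lay at 340 to 478 CPM (median 404) against 0.09905 to 0.585 CPM (median 0.344), a log2 fold change of 10.38 ± 0.14. Lrtm1 and Lrit3, proteins with leucine-rich repeats, were as far apart (11.25 and 10.88). The exception within the list was Prkca, the rod bipolar kinase, which the cortex also expressed: its log2 fold change was 1.02 ± 0.04 and it did not pass the 2-fold limit. Gng13 and Rgs11, which act with Grm6 signalling, were also detected in the cortex (medians of 17.2 and 10.6 CPM).

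All 10 amacrine genes tested were higher in the retina beyond 2-fold, with a median of 4.84. Tfap2b, a defining transcription factor, lay at 181 to 198 CPM (median 187) in the retina and 0.877 to 1.89 CPM (median 1.14) in the cortex. The genes of cholinergic starburst cells, Chat and Slc18a3, were 5.26 ± 0.19 and 4.42 ± 0.28 higher, while the dopamine enzyme Th had the smallest fold (1.36 ± 0.21). Of 6 horizontal cell genes, 5 were higher in the retina and Calb1, also a marker of cortical neurons, was higher in the cortex (-0.61 ± 0.05). Lhx1 had 405 counts in the retina and 0 in all cortices, at least 155-fold higher against a floor of 3 counts over the group.

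Ganglion cells, the output neurons, split by whether a gene is specific to them. Of 16 genes, 14 were higher in the retina and 2 in the cortex, and 12 and 1 lay beyond 2-fold (median 5.27). The POU factors that define the class were at or near 0 in cortex: Pou4f2 had 1109 retina counts and 0 cortex counts, at least 424-fold higher, and Pou4f1 lay at 24.4 to 33.5 CPM (median 29.02) against 7 counts in all cortices. Sncg, gamma-synuclein, was 6.06 ± 0.12 higher in the retina. General markers of large projection neurons did not part the tissues in that way. Thy1 was higher in the cortex (-1.71 ± 0.04), Nefl differed by 0.13 ± 0.06 and Nefh by 0.43 ± 0.07, with overlapping tissues for both neurofilaments, and the difference in Nefl did not pass with TMM scaling (0.06).

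The cortex side was led by myelin. All 19 myelin and oligodendrocyte genes were higher in the cortex beyond 2-fold (17.3% of genes tested were), with a median log2 fold change of -5.91, and they summed to 5474 to 7046 CPM in cortex libraries and to 95.3 to 120.1 CPM in retina libraries. Mbp, myelin basic protein, whose gene also makes transcripts outside myelin, lay at 2116 to 2775 CPM (median 2338) in the cortex and 37.03 to 42.2 CPM (median 39.3) in the retina, a log2 fold change of -5.91 ± 0.07. Mag, an adhesion protein of the inner wrap of myelin, lay at 174 to 217 CPM (median 205) against 0 to 0.684 CPM (median 0.346) and differed more (-8.96 ± 0.15). Mobp gave 3 counts in the 7 retinas together and 27803 in the 7 cortices. Cldn11, a claudin of the radial component of myelin, was lower in the retina by 8.78 log2 units. The factors of the lineage were as low, with Olig1 at 2 counts and Olig2 at 4 counts in all retinas against 7976 and 1761 in the cortices. Of 6 precursor genes, 4 were higher in the cortex (39.5% of all genes tested were), Gpr17 most (-7.91 ± 0.16). C1ql1 and Lhfpl3 were higher in the retina (3.45 ± 0.12 and 1.73 ± 0.08), as were 45.4% of all genes tested.

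Genes of cortical glutamatergic neurons were mostly higher in the cortex, 17 of 21, with 16 beyond 2-fold, against 3 and 1 in the retina (median -2.72). Neurod6, a factor of pyramidal neurons, lay at 97.8 to 111 CPM (median 100.2) in the cortex and at 1.08 to 2.82 CPM (median 1.203) in the retina, a log2 fold change of -5.83 ± 0.11. Emx1, a marker of the dorsal forebrain lineage, had 2 retina counts and 1802 cortex counts. The factors Tbr1 and Emx2 differed by -5.16 and -5.58. Camk2a, the kinase of spine plasticity, lay at 2793 to 3095 CPM (median 2904) in the cortex and at 36.2 to 47.3 CPM (median 42.8) in the retina. Nrgn, neurogranin, which binds calmodulin in spines, had a log2 fold change of -7.07 ± 0.07. The members higher in the retina were genes that photoreceptors and other retinal neurons also use: Slc17a7, the vesicular glutamate transporter VGLUT1, lay at 1366 to 1534 CPM (median 1468) in the retina and 1109 to 1277 CPM (median 1186) in the cortex. Rorb, which rods and horizontal cells need, was 2.65 ± 0.07 higher, and Tle4 0.20 ± 0.04 higher.

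Of 19 interneuron genes, 17 were higher in the cortex, 15 beyond 2-fold, and 2 in the retina, 1 beyond 2-fold (median -2.90). Lhx6, a factor of interneurons born in the medial ganglionic eminence, had 6 counts in all retinas and 2529 in the cortices. The peptide Sst lay at 160.3 to 179 CPM (median 170.3) in the cortex and 3.005 to 6.87 CPM (median 3.999) in the retina. Among the genes that make and load GABA, which amacrine and horizontal cells share with interneurons, Gad1 and Slc32a1 were close. Gad1 differed by -0.31 ± 0.04, and for Slc32a1 (0.24 ± 0.06) the tissues overlapped. Gad2 lay further apart, at 202.3 CPM in the cortex and 87.44 CPM in the retina with counts pooled over animals. Reln was higher in the retina (1.27 ± 0.08). Among 11 genes of striatal neurons, 6 were higher in the cortex and 5 in the retina (39.5% and 45.4% of all genes tested were). Rgs9, whose short form speeds the turn-off of transducin and whose long form is made in striatum, lay at 2076 to 2267 CPM (median 2152) in the retina and 16.9 to 22.6 CPM (median 18.8) in the cortex, and Drd2 was 4.08 ± 0.15 higher in the retina.

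The glia of the 2 tissues differed gene by gene. Of 15 astrocyte genes, 12 were higher in the cortex, 10 beyond 2-fold, and 3 in the retina, none beyond 2-fold (median -2.14). Gfap, the intermediate filament of astrocytes, lay at 136 to 237 CPM (median 179) in the cortex and 13.9 to 27.2 CPM (median 20.9) in the retina. Slc1a2, the transporter GLT-1, lay at 3091 to 3495 CPM (median 3319.8) against 328 to 391.9 CPM (median 345) (-3.25 ± 0.05). Fgfr3 and Gjb6 were lower still in the retina (-6.90 ± 0.17 and -5.50 ± 0.26). Aqp4, the water channel that Muller glia and astrocytes both hold at vessels, lay at 165 to 194 CPM (median 175) in the retina and at 119.5 to 178 CPM (median 147) in the cortex, with overlapping tissues. Of 10 Muller glia genes, 7 were higher in the retina and 3 in the cortex (45.4% and 39.5% of all genes tested were). Rlbp1, the retinaldehyde-binding protein of Muller glia and pigment epithelium, was 4.37 ± 0.08 higher and Abca8a 5.31 ± 0.07 higher in the retina, whereas Slc1a3 and Kcnj10, shared with astrocytes, were higher in the cortex (-1.39 ± 0.06 and -1.41 ± 0.06).

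All 15 microglia genes were higher in the cortex beyond 2-fold, with a median log2 fold change of -2.75, and Fcrls lay furthest apart (-4.41). Csf1r, the receptor that microglia need to survive, lay at 103 to 116 CPM (median 108) in the cortex and 10.95 to 14.3 CPM (median 12.9) in the retina. Summed over the list, the retina held 13.3 to 19.9% of the level in the cortex of the same animal. Vessel genes did not move as a block. Of 12 endothelial genes, 8 were higher in the cortex and 3 in the retina (39.5% and 45.4% of all genes tested were). Mfsd2a, the lipid transporter of the blood-brain barrier, was lower in the retina (-2.81 ± 0.10), and Kdr, a VEGF receptor that some retinal neurons also express, was higher (3.86 ± 0.09). Of 8 genes of mural cells, 5 were higher in the cortex and 3 in the retina, 2 of these beyond 2-fold, Myh11 and Vtn. Over all genes tested the shares were 39.5% and 45.4%, and 17.9% were beyond 2-fold higher in the retina. Vtn, vitronectin, a matrix protein that photoreceptors also make, lay at 826 to 923 CPM (median 896) in the retina and 54.9 to 87.2 CPM (median 75.6) in the cortex. Slc2a1, the glucose transporter GLUT1, was 1.22 ± 0.05 higher in the retina.

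Genes of the tissues that lie against the retina and cortex varied between libraries, and the part of such tissue in other results was not tested. Of 14 pigment epithelium genes, 13 were higher in the retina, 11 beyond 2-fold (median 4.39). Dct, an enzyme of melanin synthesis, lay at 31.5 to 623 CPM (median 268) in the retina and 0.345 to 1.36 CPM (median 0.658) in the cortex, with its 3 highest retinas those of animals 958, 965 and 966, and its log2 fold change of 8.49 was 7.54 without them. Rpe65, the isomerase of the visual cycle and the defining gene of the epithelium, lay lower, at 4.45 to 13.4 CPM (median 9.97), against 1.27 to 4.34 CPM (median 2.08) in the cortex. Of 12 choroid plexus genes, 6 were higher in the retina and 3 in the cortex (45.4% and 39.5% of all genes tested were). Ttr lay at 29.05 to 1127 CPM (median 89.98) in the cortex and 20.8 to 60.5 CPM (median 39.3) in the retina, with overlapping tissues, and its log2 fold change of -2.51 became -0.55 (adjusted p = 0.0726, edgeR) without the cortices of animals 958 and 965. Aqp1, which is also made by retinal cells, lay at 176 to 213 CPM (median 195) in the retina and 0.575 to 10.4 CPM (median 0.975) in the cortex. Of 14 meningeal genes, 9 were higher in the cortex and 1 in the retina (39.5% and 45.4% of all genes tested were). Beyond 2-fold lay 4 and 0 (17.3% and 17.9% of all genes tested), among them Aldh1a2 (-3.89 ± 0.22) and Slc47a1 (-2.41 ± 0.23). This list summed to 717, 662 and 1011 CPM in the retinas of animals 958, 965 and 966. In the other retinas it summed to 331 to 459 CPM. All 4 red blood cell genes were higher in the cortex, none beyond 2-fold, and Hba-a1 lay at 35.3 to 102 CPM (median 63.7) against 14.9 to 56.6 CPM (median 26.9), with overlap. Of 15 lens genes only 5 had counts enough to be tested.

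**Figure D3:**
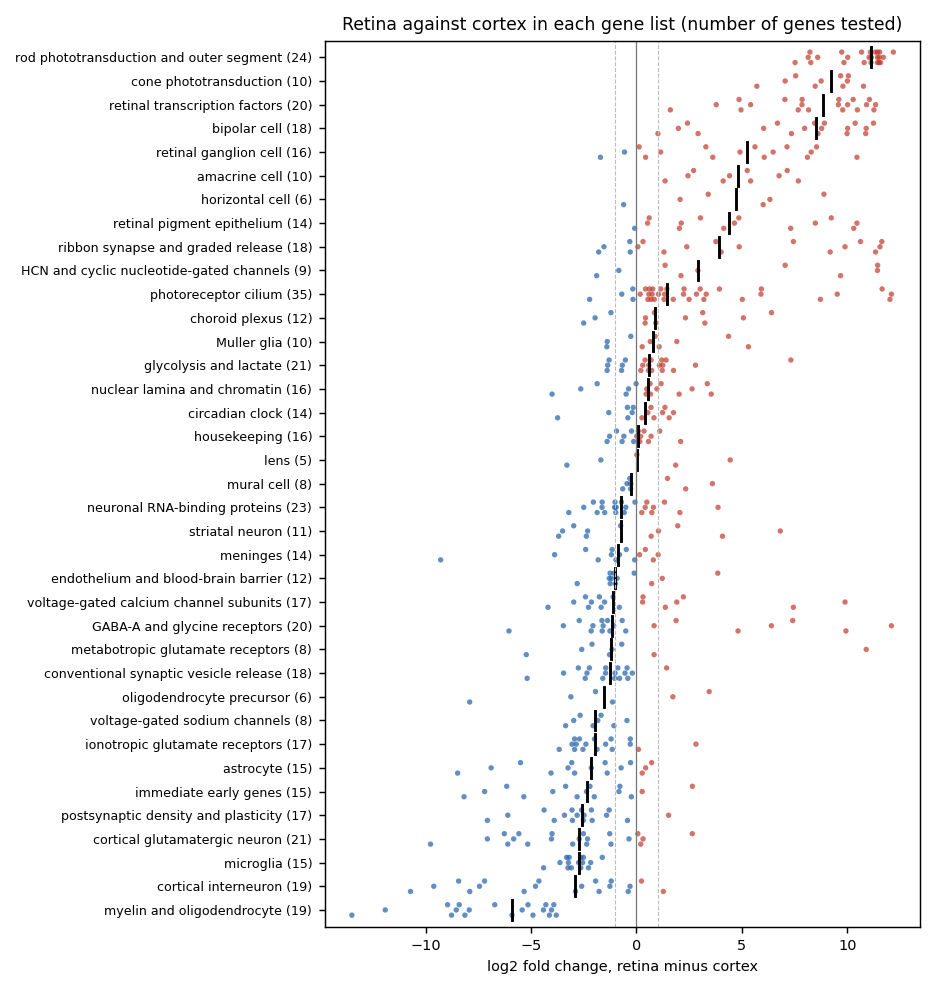
Log2 fold change, retina minus cortex, of each gene tested in the lists with at least 5 such genes (red higher in the retina, blue higher in the cortex), with the black bar at the median and dashed lines at 2-fold. Photoreceptor, bipolar and retinal factor lists lie at the top, myelin, interneuron and microglia lists at the bottom, and housekeeping genes around 0.

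The presynaptic side separated by the kind of synapse. Of 18 genes of ribbon synapses and graded release, 13 were higher in the retina and 4 in the cortex, with 12 and 2 beyond 2-fold (median 3.89). Of 18 genes of conventional vesicle release, 17 were higher in the cortex and 1 in the retina, with 9 and 1 beyond 2-fold (median -1.25). Within families the 2 tissues used different members. Syntaxins anchor the vesicle fusion machine in the plasma membrane: Stx3, the form of ribbon synapses, lay at 773 to 823 CPM (median 806) in the retina and 25.2 to 30.5 CPM (median 27.2) in the cortex (4.87 ± 0.05), and Stx1a lay at 7.11 to 10.9 CPM (median 9.22) and 313 to 347 CPM (median 330.1) (-5.19 ± 0.06). Complexins clamp and trigger fusion. Cplx4 lay at 544 to 611 CPM (median 571) in the retina and 0 to 0.493 CPM (median 0.149) in the cortex, Cplx3 differed by 3.77 ± 0.06, and the cortical forms Cplx1 and Cplx2 differed by -2.43 ± 0.05 and -2.23 ± 0.05. Cplx1 was nevertheless counted in all 7 retinas, at 123 to 140 CPM (median 137). The active zone proteins shared by both kinds of synapse went the other way or were close: Bsn was higher in the cortex (-1.80 ± 0.06) and Pclo differed by -0.30 ± 0.08 with overlap. Snap25, the fusion protein of nearly all synapses, lay at 1354 to 1703 CPM (median 1604) in the retina and 2882 to 3669 CPM (median 3097) in the cortex, with its lowest retina that of animal 955, and did not pass the 2-fold limit (-1.02 ± 0.05).

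On the postsynaptic side 16 of 17 genes of the postsynaptic density were higher in the cortex, 15 beyond 2-fold (median -2.61). The scaffold genes Dlgap2, Baiap2 and Iqsec2 were among the furthest apart (-4.39 ± 0.08, -3.90 ± 0.05 and -3.42 ± 0.06), and Dlg4, PSD-95, the closest (-0.43 ± 0.04). Homer3 was the member higher in the retina (1.52 ± 0.10), while its paralogues Homer1 and Homer2 were higher in the cortex (-2.82 ± 0.07 and -1.42 ± 0.06).

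Glutamate receptor genes followed suit. Of 17 ionotropic receptor genes, 15 were higher in the cortex, 13 beyond 2-fold, and 1 in the retina (median -1.99). The NMDA receptor subunit Grin1 lay at 474 to 541 CPM (median 482) in the cortex and 70.7 to 92.8 CPM (median 72.9) in the retina, and Grin2c and Grin2b differed by -3.67 ± 0.12 and -3.06 ± 0.11. The kainate receptor subunit Grik1, used by OFF bipolar cells, was the one higher in the retina (2.82 ± 0.07), while Grik3 and Grik4 were higher in the cortex (-2.94 ± 0.06 and -2.86 ± 0.13). Grin2d did not pass the test (0.09 ± 0.11). Among 8 metabotropic receptors, Grm6 and Grm8 were higher in the retina (Grm8 by 0.84 ± 0.07) and the other 6 in the cortex, Grm3 and Grm5 most (-5.23 ± 0.08 and -2.60 ± 0.06).

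Of 20 receptor genes for GABA and glycine, 13 were higher in the cortex, 11 beyond 2-fold, and 7 in the retina, 6 beyond 2-fold. Over all genes tested 39.5% were higher in the cortex and 45.4% in the retina. The 2 directions followed subunit class. The rho subunits, which form the slow GABA receptor of bipolar cell terminals, were all higher in the retina: Gabrr1 lay at 114 to 140.2 CPM (median 134) there and at 0 to 0.195 CPM (median 0) in the cortex, Gabrr2 differed by 6.40 ± 0.10, and Gabrr3 had 1771 retina counts and 2 cortex counts. All 4 alpha subunits of glycine receptors were higher in the retina, with Glra1 at 4.82 ± 0.20 and Glra3 at 1.88 ± 0.14, but Glrb, the beta subunit they share, was higher in the cortex (-1.64 ± 0.06). All tested alpha, beta, gamma and delta subunits of GABA-A receptors were higher in the cortex. Gabra5 lay furthest apart, at 61.4 to 92.4 CPM (median 75.9) against 0.5197 to 1.65 CPM (median 1.07), and Gabrg3 closest (-0.51 ± 0.15).

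Calcium channels and channels opened by hyperpolarisation had members on both sides, and sodium channels did not. Of 17 voltage-gated calcium channel genes, 7 were higher in the retina and 10 in the cortex (45.4% and 39.5% of all genes tested were). Cacna1f, the pore of the photoreceptor's ribbon synapse, lay at 342 to 660.4 CPM (median 376) in the retina and 0.164 to 0.864 CPM (median 0.396) in the cortex, and its log2 fold change of 9.90 was 9.73 without the retina of animal 955, the highest. Its partner Cacna2d4 differed by 7.45 ± 0.09. The pores of conventional terminals and dendrites were higher in the cortex, Cacna1e most (-4.20 ± 0.07), followed by Cacna1c and Cacna1a (-2.14 ± 0.06 and -1.68 ± 0.04), while Cacna1d and Cacna1g were slightly higher in the retina (0.29 ± 0.05 and 0.31 ± 0.06). All 8 voltage-gated sodium channel genes were higher in the cortex, 6 beyond 2-fold: the pores Scn2a1 and Scn8a differed by -2.67 ± 0.04 and -1.68 ± 0.05, and Scn3a by -0.45 ± 0.05. Among channels opened by hyperpolarisation, Hcn4 and Hcn3 were higher in the retina (2.92 ± 0.20 and 1.36 ± 0.09), and Hcn2 was higher in the cortex (-1.89 ± 0.05).

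**Figure D4:**
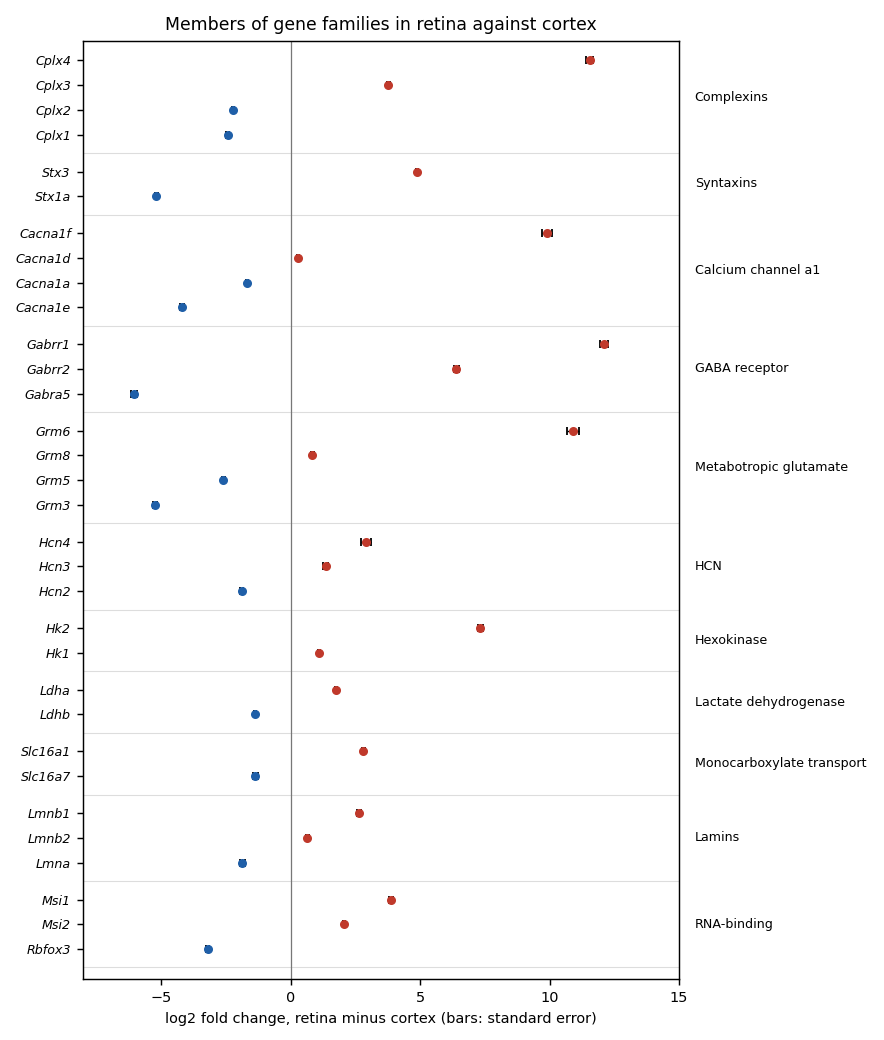
Log2 fold change, retina minus cortex, with standard errors, for members of 11 gene families (red higher in the retina, blue higher in the cortex). In most families at least 1 member lies on each side, such as Stx3 at 4.87 and Stx1a at -5.19, and both hexokinases lie on the retinal side.

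The retina makes lactate from glucose even with oxygen present, and the enzymes of that route were compared next. Of 21 genes of glycolysis and lactate handling, 15 were higher in the retina and 6 in the cortex (45.4% and 39.5% of all genes tested were). Beyond 2-fold lay 8 and 3 (17.9% and 17.3% of all genes tested), and the median was 0.58. Several steps have isoforms that were compared one by one. Hk2 (chr6:82725027-82774454), the hexokinase of photoreceptors, lay at 522 to 641 CPM (median 576) in the retina and 2.88 to 4.38 CPM (median 3.604) in the cortex, a log2 fold change of 7.33 ± 0.08, whereas Hk1 differed by 1.09 ± 0.04. Lactate dehydrogenase changed its form: Ldha, which favours lactate, lay at 1221 to 1406 CPM (median 1354) in the retina and 371 to 413 CPM (median 399.6) in the cortex, and Ldhb, which favours pyruvate, lay at 193 to 249 CPM (median 229.9) and 561 to 604 CPM (median 593). Their log2 fold changes were 1.76 ± 0.04 and -1.39 ± 0.04. Lactate carriers did likewise, Slc16a1 higher in the retina (2.80 ± 0.05) and Slc16a7, the neuronal form, higher in the cortex (-1.37 ± 0.10). Among phosphofructokinases, Pfkl was higher in the retina (1.25 ± 0.05), Pfkm in the cortex (-1.30 ± 0.04), and for Pfkp (0.21 ± 0.05) the tissues overlapped. The pyruvate kinase gene Pkm was 1.20 ± 0.03 higher in the retina, and its splice forms were not read here.

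Nuclear proteins are of interest because mouse rods keep their heterochromatin in the centre of the nucleus. Of 16 lamina and chromatin genes, 10 were higher in the retina and 5 in the cortex, with 5 and 3 beyond 2-fold. Over all genes tested the shares were 45.4% and 39.5%, with 17.9% and 17.3% beyond 2-fold. Lmna, the A-type lamin, was lower in the retina (-1.87 ± 0.09) and Lmnb1 higher (2.64 ± 0.08), with Lmnb2 between (0.64 ± 0.07). Lbr, the lamin B receptor, was 1.17 ± 0.09 higher in the retina. The nucleosome-binding genes Hmgn1 and Hmgb2 were further apart (3.54 ± 0.07 and 3.36 ± 0.12), and the chromatin organiser Satb1 was higher in the cortex (-2.65 ± 0.06).

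Of 23 RNA-binding proteins of neurons, 8 were higher in the retina and 14 in the cortex (45.4% and 39.5% of all genes tested were), with 3 and 7 beyond 2-fold (17.9% and 17.3% of all genes tested were). Msi1, a musashi protein that promotes photoreceptor exons, lay at 182 to 239 CPM (median 182) in the retina and 11.3 to 14.4 CPM (median 13.9) in the cortex, and its paralogue Msi2 differed by 2.06 ± 0.04. Rbfox3, the antigen NeuN, lay at 26.9 to 33.2 CPM (median 30.05) against 260.1 to 312 CPM (median 272) (-3.21 ± 0.06), and all 3 Rbfox genes were higher in the cortex. Ptbp1, a repressor of neuronal exons, was 1.33 ± 0.07 higher in the retina, and Celf5 was higher in the cortex (-2.50 ± 0.07).

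Activity-dependent and daily genes depend on how and when animals are killed, for which the sources used here give no account. Of 15 immediate early genes, 13 were higher in the cortex, 10 beyond 2-fold, and 2 in the retina, 1 beyond 2-fold (median -2.37). Over all genes tested the shares were 39.5% and 45.4%, with 17.3% and 17.9% beyond 2-fold. Arc, which acts at spines, lay at 333 to 468 CPM (median 424) in the cortex and 2.14 to 3.88 CPM (median 2.84) in the retina, and Egr3 and Egr1 differed by -6.16 ± 0.14 and -3.97 ± 0.09. Fos differed less (-0.79 ± 0.08) and Btg2 was higher in the retina (2.65 ± 0.07). Of 14 clock genes, 7 were higher in the retina and 6 in the cortex, shares near the 45.4% and 39.5% of all genes tested. Npas2, a forebrain partner of the clock, was lower in the retina (-3.74 ± 0.10), and its paralogue Clock was higher (0.69 ± 0.06). Cry1 and Per3 were 1.76 ± 0.06 and 1.55 ± 0.10 higher in the retina, and for Per1 and Cry2 the tissues overlapped. Housekeeping genes spread around 0, with a median of 0.05. Of 16, 7 were higher in each tissue, near the 45.4% (retina) and 39.5% (cortex) of all genes tested. Beyond 2-fold lay 1 in the retina (Polr2a, 2.10 ± 0.04) and 2 in the cortex (Actb and Ywhaz, -1.39 ± 0.04 and -1.27 ± 0.03). Of all genes tested 17.9% and 17.3% lay beyond 2-fold.

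Among other DNA-binding factors, Zbtb16, a zinc finger repressor, lay at 56.4 to 76.2 CPM (median 64.5) in the cortex and 7.33 to 14.03 CPM (median 8.05) in the retina (-2.83 ± 0.10). Banp, which binds an unmethylated promoter motif, lay at 32.5 to 39.05 CPM (median 35.6) and 34.3 to 40.97 CPM (median 35.9) and did not pass the test (0.08 ± 0.06).

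Whether the tissue difference depended on sex was tested as an interaction. By edgeR's quasi-likelihood test 0 of 15235 genes passed (0%), while 1205 had an unadjusted p under 0.05, and DESeq2 called 8. Without the cortex of male 963 or that of male 964 edgeR called 1, without the retina of male 966 it called 4, and without the retina of female 958 it called 5. With all 14 libraries the smallest adjusted p of the edgeR test was 0.122. Slc4a4, a sodium bicarbonate cotransporter of glia, had the retina-minus-cortex difference 0.97 ± 0.17 (SE) log2 units larger in males, and Fam129a and Wisp1 had it 1.30 ± 0.23 and 0.80 ± 0.14 larger. DESeq2's adjusted p for Slc4a4, Fam129a and Wisp1 was 8.94e-05, 0.000936 and 0.0158. Ryr1, Ctxn1, Wls, Olfml1 and Slc38a8 were the other 5 that DESeq2 called. Xist, whose RNA coats and silences the inactive X in females, lay at 1979 ± 962 CPM (SD, n = 3) in female retinas and 411 ± 86.0 CPM (SD, n = 3) in female cortices, with 3086 CPM in the retina of animal 955. Ddx3y, a Y-linked RNA helicase gene, lay at 65.97 to 83.2 CPM in male retinas and 56.8 to 67.6 CPM in male cortices.

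The same comparison was made in the tamoxifen animals, 8 retinas and 7 cortices with enough counts, which share no library with the vehicle animals. There 12897 of 15262 genes (84.5%) differed, 5302 (34.7%) beyond 2-fold. Of the 5313 genes beyond 2-fold in vehicle animals that could be tested in both, 5313 went the same way and 4939 (93%) were also beyond 2-fold, and these made up 94.4% of the 5233 genes beyond 2-fold in the tamoxifen animals. Across the 15104 genes tested in both, which are not independent of each other, the log2 fold changes had a Pearson r of 0.9874. Gnat1 lay at 10704 to 12086 CPM in tamoxifen retinas and 1.44 to 19.8 CPM in tamoxifen cortices (10.84 ± 0.26). Hk2, Stx3 and Mag had log2 fold changes of 6.72 ± 0.09, 4.79 ± 0.06 and -8.84 ± 0.12. Among the lists, 24 of 24 rod genes, 19 of 19 myelin genes and 15 of 15 microglia genes lay beyond 2-fold in the same tissue, with medians of 10.76, -6.13 and -2.87. Lists of neighbouring tissue and blood gave other counts than in vehicle animals. Red blood cell genes lay beyond 2-fold in the cortex for 4 of 4 (median -2.23) against 0 of 4 (median -1.19) in vehicle animals. Lens genes lay beyond 2-fold in the retina for 10 of 14 tested (median 4.92), with summed levels of 2.65 to 567 CPM across tamoxifen retinas, against 2 of 5 tested (median 0.017) in vehicle animals. The difference between the animals was not tested.

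Rod genes were low in the cortex but not at 0. The 24 rod genes summed to 39.0 to 95.3 CPM in the cortex libraries, and in each animal this was 0.0540 to 0.134% of the sum in its retina (mean 0.0774%, SD 0.0268, 7 animals). Gnat1 gave 23 to 149 counts per cortex library, above the floor of 3 counts. The cortex of animal 964 held the highest sum, 95.3 CPM against at most 59.1 CPM in the others, and it was the highest cortex for 16 of the 24 genes. The share of the retinal level was not the same for all genes. With counts pooled over animals, the middle of the list lay at 0.0515% (quartiles 0.0411 and 0.111%), from 0.0300% for Pdc to 0.567% for Gucy2e. Rdh12, Gucy2f, Abca4 and Rom1 followed Gucy2e.

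The ratio of Gnat1 to Prph2 counts was 2.42 to 3.83 (median 3.03) in cortices, where Prph2 gave 6 to 48 counts, and 2.12 to 2.37 (median 2.29) in retinas. The ratio of Gnat1 to Gucy2e counts lay much further apart, at 0.5 to 2.33 (median 0.977) in cortices and 12 to 15.3 (median 13.6) in retinas. Neither ratio overlapped between the tissues. Gucy2e counts per cortex library, not scaled to totals, ranged from 41 to 93. The cortex of animal 964, with the most Gnat1 counts, had 64 of Gucy2e and the lowest total of the cortices (10259768 counts). Scaled to library totals, it was the highest cortex for Gucy2e too. Where the rod reads in cortex libraries came from was not tested. In the other direction, myelin genes in each retina summed to 1.44 to 1.89% of the level in the cortex of the same animal, and Mbp was counted in all 7 retinas. Summed levels of bipolar genes in the cortex were 10.3 to 12.7% of the retina's, carried by Prkca, which the cortex expresses.

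**Figure D5:**
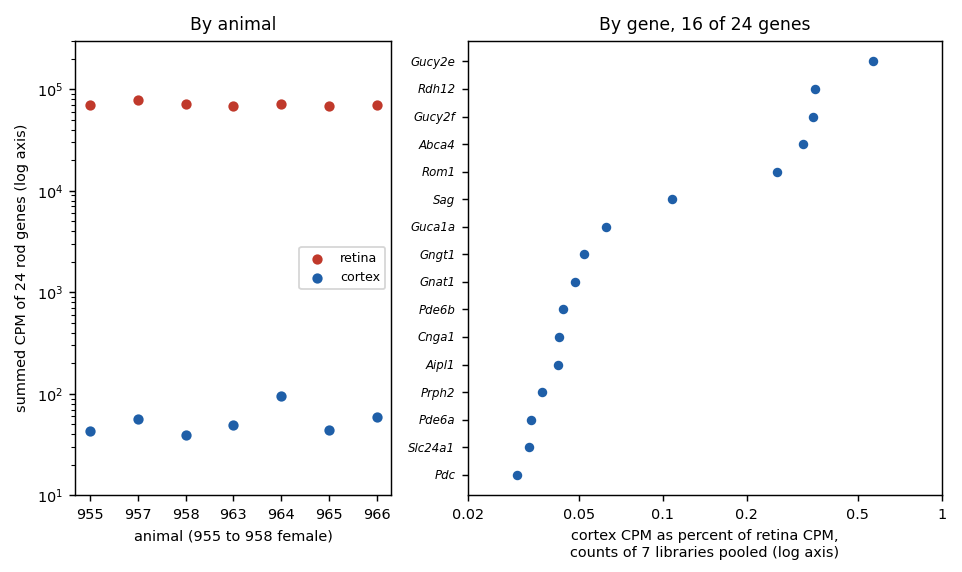
Left, summed CPM (log axis) of the 24 rod genes in the retina and cortex of each animal; right, cortex CPM as a percent of retina CPM for 16 of these genes, counts of the 7 libraries pooled (log axis). Retinas lie between 68660 and 77540 CPM, the cortex of animal 964 is the highest at 95.3 CPM, and Gucy2e, Rdh12, Gucy2f, Abca4 and Rom1 stand above the other genes plotted.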

How the data were processed

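Each tissue had its own table of expected counts, which the authors deposited unnormalised, per the file headers. GRCm38, mm10 and DESeq appear in the submitters' processing notes without a stated role. The aligner, counter and strand setting were not given in the sources used here, so reads of close gene copies, overlapping genes and antisense partners may be shared between them. Per the labels' protocols, AllPrep kits gave the RNA and a TruSeq kit the libraries. Gene positions follow the deposited tables and were read as GRCm38.

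The retina and cortex tables were joined by gene ID (36172 genes), counts were rounded, and libraries were scaled to their table totals. Genes were kept with filterByExpr (minimum count 10, minimum total 15) and fitted with edgeR 4.0.16 in R 4.3.3 by the quasi-likelihood method with 1 mean for each tissue and sex. The contrast was mean retina minus mean cortex, tested against no change and against a 2-fold limit (glmTreat), with Benjamini-Hochberg adjustment over 15235 genes and a limit of 0.05 on the adjusted p. The SE of a fold change was derived from its F statistic. The tamoxifen animals were fitted alike, leaving out 1 cortex library of 4567 counts. Scripts were tested on simulated data. Count floors cover counting error only, and CPM precision is limited by totals of 9143811 to 20192115 counts.

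Replicates are separate animals, and the animal number in the titles pairs the tissues. Deviations of paired libraries from their group means had correlations of -0.0407 to 0.0542. All replicate pairs differed beyond sampling noise (chi-square per gene of 3.73 or more). Of 569 list genes, 562 matched by symbol, 6 by gene ID, and 1 was not found.

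The libraries, the gene lists and the tests were chosen with earlier results of these data known. The naming rule took the 10 genes with the largest fold in each direction (at least 100 CPM in the higher tissue and 10 counts in the lower), the 5 most counted genes of each tissue, up to 6 of the largest and 3 of the smallest folds per list, and paralogues compared in a sentence. Some genes that this rule takes are not described. Alternatives were TMM or DESeq2 1.42.0 scaling, no low-count filter, an animal block, each sex alone, a DESeq2 Wald test, a 4-fold limit, and each library left out.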

Additional observations from a re-analysis of the deposited data

Results flagged for a closer look

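In 172 sets of 7 values (a gene or a summed list in 1 tissue) the highest or lowest library was checked for a gap to its nearest neighbour too wide for Dixon's test. Chance gives about 1 such set in 20, and 21 were found. The sets are not independent, since genes such as Grm6 and Cacna1f were checked alone and again within their lists. The retina of animal 955 accounted for 12 of the 21. It was highest for Arr3 (292 CPM, next 197.5), Cacna1f (660.4 CPM, next 397), Grm6 (173 CPM, next 118) and Msi1 (239 CPM, next 197), and lowest for Rbp3 (5058 CPM, next 5488) and Snap25 (1354 CPM, next 1592). Among lists it was highest for metabotropic glutamate receptors (317 CPM, next 278) and calcium channel subunits (2471 CPM, next 1994). It was lowest for horizontal cells (198 CPM, next 229), ganglion cells (1089 CPM, next 1280), conventional vesicle release (5763 CPM, next 6304) and housekeeping genes (7574 CPM, next 8174). The same library held the most non-coding RNA, and its part in these gaps was not tested.

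The cortex of animal 958 was highest for Ttr (1127 CPM, next 295), Aqp1 (10.4 CPM, next 2.28) and the choroid plexus list (1323 CPM, next 344). The cortex of animal 964 was highest for Tulp1 (1.17 CPM, next 0.495) and the rod list (95.3 CPM, next 59.1). The rod list was highest in the retina of animal 957 (77540 CPM, next 72170). Grin1 was highest in the retina of animal 965 (92.8 CPM, next 75.6) and in the cortex of animal 963 (541 CPM, next 502). Ldhb was lowest in the cortex of animal 965 (561 CPM, next 587).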

How the results depend on the processing

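The 12932 genes that differed became 12846 with TMM scaling, 12843 with DESeq2 size factors, 13755 without a filter, 12795 with a replicate block for the animal, 10902 in females alone, 12106 in males alone and 12813 with DESeq2's Wald test. Leaving out 1 library gave 12758 to 12893, and beyond 2-fold 5290 to 5450. The 5364 genes beyond 2-fold became 5312 with the block, and 2239 lay beyond 4-fold. The sex difference, with 0 calls, gave 2 without a filter, 8 with DESeq2, 0 with the block and 0 to 5 with 1 library left out. The tamoxifen animals gave 12799 with the block and 12742 to 12902 with 1 library left out. TMM scaling moved the median of all genes from 0.08 to 0.02. Leaving out libraries high in choroid plexus or pigment epithelium genes, and animal 964 for the rod ratio (0.0679% against 0.0774%), were alternatives chosen after seeing the data. Of 199 genes named or plotted, 186 kept their direction and their call against no change under every alternative that gave an adjusted p. The 2-fold calls of single genes were not checked in this way. No named gene reversed. The cause of these changes was not tested. Genes at few counts in 1 tissue have no firm fold.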

Other observations

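Genes on the X chromosome lay slightly to the cortex side. Their median log2 fold change was -0.136 (539 genes), while the medians of the autosomes lay between -0.00597 and 0.23. Of the X-linked genes 19.9% were beyond 2-fold higher in the cortex and 13.9% in the retina, against 17.3% and 17.9% of all genes. Neither share was tested for chromosome.

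Of 22013 genes typed protein-coding in the tables, 4740 (21.5%) had 0 counts in all 14 libraries. They included Mtap2 and Spna2 (older symbols of a microtubule-associated protein and of spectrin), Ptprd, Acta2, Hnrnpr and Supt5h, genes that neurons, vessels or most cells are known to use. A count of 0 for such a gene is given as listed, and no statement on these genes was drawn from it.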
